A study of Mus musculus with 8 samples.

Results

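Pou2af1, Pou2f1 and Pou2f2 encode the octamer-binding system of B cells, and the chromatin accessibility of their loci was followed after degradation of the transcription factor EBF1 in mouse pro-B cells. A region belonged to 1 of the 3 genes where that gene's RefSeq span on GRCm38 was the nearest protein-coding span and the region's centre lay within 100 kb of it. This gave 36 of the 54239 regions tested in the EBF1-dTAG_C line and 32 of the 55193 tested in the EBF1-dTAG_N line. Counting overlapping regions once left 44 distinct regions, of which 24 were in the tables of both lines, 12 in the EBF1-dTAG_C table alone and 8 in the EBF1-dTAG_N table alone. Of the 44 regions, 29 had their centre inside a gene span and 15 outside.

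Pou2f1 (Oct-1) and Pou2f2 (Oct-2) are POU-domain transcription factors that bind the octamer, a short DNA motif found in immunoglobulin promoters and enhancers. Oct-1 is present in most cell types, whereas Oct-2 is found mainly in B cells and in some neural cells. Pou2af1 (also called OCA-B, OBF-1 or Bob.1) is a B-cell coactivator that joins Oct-1 or Oct-2 on octamer DNA and is needed for germinal centres.

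Abelson murine leukaemia virus (A-MuLV), which carries the v-Abl kinase, had been used to transform these pro-B cells, and all 8 libraries share this transformation. In both lines, EBF1-dTAG_C and EBF1-dTAG_N, a modified EBF1 gene had taken the place of the endogenous one. The tested cells received 0.5 uM dTAG-13 for 6 h, a compound that directs dTAG-fused proteins to degradation, and the control cells received DMSO for 6 h. Each line had 2 dTAG-13 and 2 DMSO libraries, so that there were 4 groups. The titles call the controls 0h, and the treatment label was followed. The controls carry the modified EBF1 too, and the sources used here do not say whether each line is 1 clone. The level of EBF1 protein was not analysed here.

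Accessibility was measured by ATAC-seq, in which a transposase inserts adapters into open DNA. Each deposited peak list held 34202 to 42139 peaks, and the depth in reads is unknown. All 5 B-lineage marker genes examined (Cd79a, Cd79b, Pax5, Igll1 and Vpreb1) had a peak in or within 1 kb of the gene in all 8 lists. None of the 4 T-lineage genes Cd3e, Cd3g, Cd4 and Cd8a did so: Cd3e and Cd4 had a peak in 2 of the 8 lists each, Cd3g and Cd8a in 0. In bulk ATAC-seq, fewer cells with an open region and less opening per cell cannot be told apart.

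Of the 5 promoter windows listed for the 3 genes, the 4 that a region covered in full or in part are printed, because 2 of them (over the starts of Pou2af1 and Pou2f1) lay in the regions of highest mean abundance among the members. Each is the gene strand, 5′ to 3′, from RefSeq with the table's build GRCm38.p6, and runs over 300 bases from 250 before the annotated start to 50 after it. Capitals mark matches to TGCAAAT (the octamer without its first base), TGACGT (a cyclic AMP response element half-site) and GGGCGG (a GC box). These 3 motifs were picked, from a larger number tried, after the windows had been read. The windows are Pou2af1 at chr9:51213440-51213739 on the plus strand, the first start of Pou2f1 at chr1:166002585-166002884 on the minus strand, a start of Pou2f1 inside the gene at chr1:165934899-165935198 on the minus strand, and Pou2f2 at chr7:25132411-25132710 on the minus strand.
Pou2af1 start: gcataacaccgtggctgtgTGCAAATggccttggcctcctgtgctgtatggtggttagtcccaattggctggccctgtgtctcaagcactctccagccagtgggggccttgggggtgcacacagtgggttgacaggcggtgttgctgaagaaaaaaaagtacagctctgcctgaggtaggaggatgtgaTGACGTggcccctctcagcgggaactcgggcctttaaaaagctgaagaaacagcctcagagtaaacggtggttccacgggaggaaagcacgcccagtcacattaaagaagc
Pou2f1 first start: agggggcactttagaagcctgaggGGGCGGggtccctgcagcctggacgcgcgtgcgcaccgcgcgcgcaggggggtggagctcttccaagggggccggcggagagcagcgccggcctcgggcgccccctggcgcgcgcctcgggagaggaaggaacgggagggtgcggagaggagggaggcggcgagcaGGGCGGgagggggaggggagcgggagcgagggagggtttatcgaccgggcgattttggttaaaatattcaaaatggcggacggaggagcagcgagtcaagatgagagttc
Pou2f1 inner start: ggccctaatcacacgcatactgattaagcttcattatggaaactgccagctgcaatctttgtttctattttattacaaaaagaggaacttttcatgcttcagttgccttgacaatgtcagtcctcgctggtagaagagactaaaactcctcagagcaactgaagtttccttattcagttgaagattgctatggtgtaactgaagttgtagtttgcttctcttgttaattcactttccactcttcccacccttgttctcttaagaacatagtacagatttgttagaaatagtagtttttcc
Pou2f2 start: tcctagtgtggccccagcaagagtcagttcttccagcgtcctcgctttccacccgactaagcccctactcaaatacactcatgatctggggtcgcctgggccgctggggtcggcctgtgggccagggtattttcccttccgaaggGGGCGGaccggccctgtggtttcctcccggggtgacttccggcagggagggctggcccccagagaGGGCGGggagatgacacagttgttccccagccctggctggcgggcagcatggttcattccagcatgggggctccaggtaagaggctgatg

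The Pou2af1 window held TGCAAAT once, at -231 from the start, and TGACGT once, at -61. TGCAAAT is in 4.02% and TGACGT in 7.51% of the 32851 windows of all genes, on either strand. GGGCGG, which is in 35.7% of all windows, began at -226 and -60 in the window of the first Pou2f1 start and at -105 and -40 in the Pou2f2 window. The inner Pou2f1 window held none of these 3 motifs. The whole octamer ATGCAAAT (1.74% of all windows) and the EBF1 core CCCNNGGGA (6.56% of all windows) were not found in any of the 5 windows listed for the 3 genes, with both strands searched. Sequence outside these windows was not available and was not searched. Whether the regions that fell away from these windows hold either motif is therefore unknown here. The windows also differed in base composition, with a GC content of 69.7% at the first Pou2f1 start, 64.0% at Pou2f2, 55.3% at Pou2af1 and 38.0% at the inner Pou2f1 start. A window of a further Pou2f1 start, at chr1:165953022-165953321, with a GC content of 28.7%, was covered by no region in either line and held none of the 5 motifs. Every match to ATGCAAAT would also be one to TGCAAAT.

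After dTAG-13, at least 1 region of each of the 3 genes fell in each line. In EBF1-dTAG_C, 1 of 7 fell at Pou2af1 (14.3%), 2 of 13 at Pou2f1 (15.4%) and 1 of 16 at Pou2f2 (6.25%), where 6.62% of all regions fell. In EBF1-dTAG_N, 2 of 7 fell at Pou2af1 (28.6%), 3 of 11 at Pou2f1 (27.3%) and 4 of 14 at Pou2f2 (28.6%), where 18.5% of all regions fell. For EBF1-dTAG_C, by the authors' deposited table made with edgeR, 4 of the 36 regions fell (11.1%) at an adjusted p under 0.05, where 6.62% of all regions of that table fell. None of the 36 rose, where 0.308% of all regions did. An unadjusted p under 0.05 was found at 7 of the 36 regions (19.4%), where 16.8% of all regions had one, and at 19 of the 32 regions in EBF1-dTAG_N (59.4%), where 45.3% of all regions had one. By the authors' deposited table of EBF1-dTAG_N, 9 of the 32 regions fell (28.1%), where 18.5% of all regions fell, and 5 rose (15.6%), where 18.8% of all regions rose. The median log2 fold change of the members was -0.00084 in EBF1-dTAG_C and 0.05 in EBF1-dTAG_N by the authors' deposited tables, against 0.09 and 0.17 over all regions of the same tables. The deposited p-values of the lines are not on 1 footing: the test had 11.2 denominator degrees of freedom in EBF1-dTAG_C and 110386 in EBF1-dTAG_N, where the spread was pooled over regions and not taken from the replicates of the single region. With the folds of EBF1-dTAG_N centred on the median of its table, 12 regions fell and 4 rose, where 20.8% and 7.98% of all regions did. The same centring left 4 falls and 0 rises in EBF1-dTAG_C, where 7.39% and 0.162% of all regions fell and rose. With the degrees of freedom of EBF1-dTAG_C put in place of its own, EBF1-dTAG_N had 9 falls and 5 rises, where 16.3% and 12.4% of all regions did. The F values stayed as deposited, so this exchange did not bring in the spread between replicates. Falls of at least 1 on the log2 scale numbered 3 in EBF1-dTAG_C, where 6.13% of all regions had one, and 7 in EBF1-dTAG_N, where 14.9% had one. A rise of that size was called at 0 member regions in EBF1-dTAG_C, where 0.14% of all regions had one, and at 1 in EBF1-dTAG_N, where 5.13% had one.

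The 4 regions that fell in EBF1-dTAG_C also fell in EBF1-dTAG_N. They were the region over the Pou2af1 start, the regions 25.8 kb and 8.4 kb into Pou2f1, and a region at Pou2f2. The last lay 2.7 kb behind the listed start of Pou2f2, which is inside the gene span. Another 2 regions tested in both lines fell in EBF1-dTAG_N and were not called in EBF1-dTAG_C, and 3 regions that fell were in the EBF1-dTAG_N table alone. All 5 regions that rose in EBF1-dTAG_N were tested and not called in EBF1-dTAG_C, where 0.308% of all regions rose and 6.62% fell. The share of all EBF1-dTAG_C falls that were also called in EBF1-dTAG_N was not counted. The other 30 of the 44 regions were called in neither table.

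**Figure D1:**
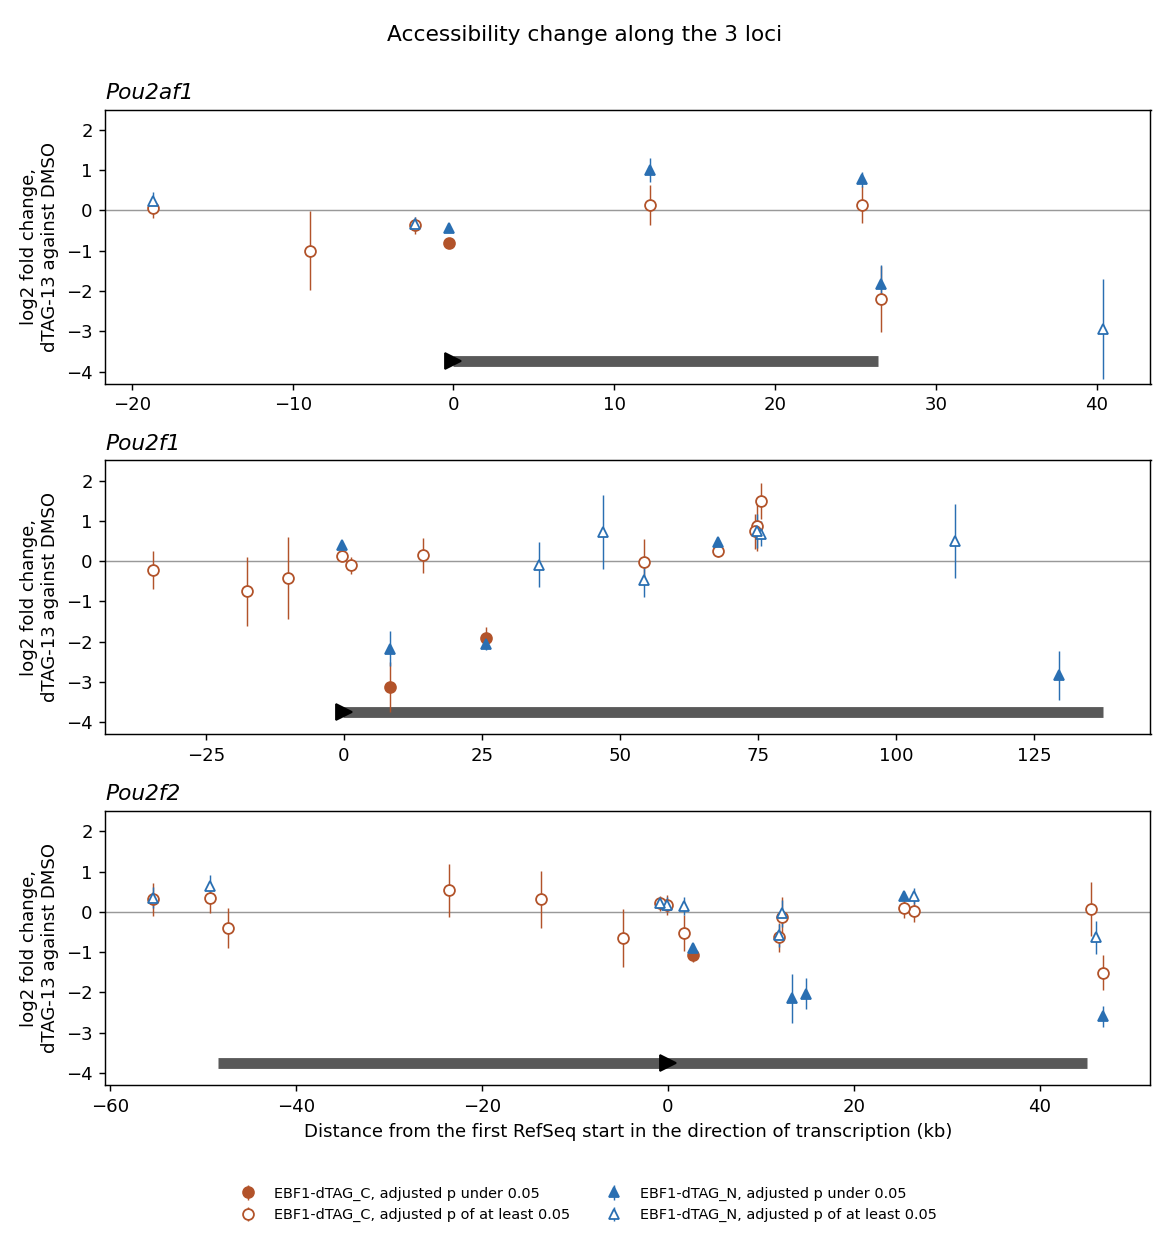
Log2 fold change of each region, dTAG-13 against DMSO, by distance of its centre from the first RefSeq start of its gene in kb, in EBF1-dTAG_C (circles) and EBF1-dTAG_N (triangles); filled symbols had an adjusted p under 0.05, bars are the approximate standard error, the grey bar is the gene span and the black arrowhead its first start. The filled circles are 4 regions, all below 0, and each lies near a filled triangle. At Pou2f2 the first start is the only one listed, and it lies inside the gene span.

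Pou2af1, the coactivator gene, spans chr9:51213690-51240079 on the plus strand (26.39 kb) and had 7 regions in each line, 8 distinct ones. The region over its start, chr9:51213022-51213783 in EBF1-dTAG_C and chr9:51213022-51213829 in EBF1-dTAG_N, covered the whole promoter window printed above. It was among the most accessible regions of either table, at a mean log2 CPM of 7.55 in EBF1-dTAG_C (percentile 99.3) and 7.50 in EBF1-dTAG_N (percentile 99.4). The peak there had a fold enrichment, as the authors' peak caller gave it, of 14.4 and 14.4 in the EBF1-dTAG_C dTAG-13 libraries and 16.7 and 15.7 in the EBF1-dTAG_C DMSO libraries. In EBF1-dTAG_N these values were 15.5 and 14.4 in the dTAG-13 libraries and 17.2 and 18.5 in the DMSO libraries. In both lines both dTAG-13 values lay under both DMSO values, and the peak was called in all 8 lists. The share of all regions with groups so separated was not counted, here or for the regions below. The fold enrichment of a peak is relative to the background of its own library, so it describes peaks and was not tested between libraries. In the authors' deposited tables this region fell by 0.82 on the log2 scale in EBF1-dTAG_C (1.77-fold lower, approximate standard error 0.091, edgeR adjusted p = 0.000184) and fell by 0.44 in EBF1-dTAG_N (1.35-fold lower, approximate standard error 0.058, edgeR adjusted p = 7.08e-13). The standard errors here and in the rest of the text were taken from each fold change and its F value.

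The peak over the Pou2af1 start was also highest at another place after dTAG-13. In EBF1-dTAG_C its summit lay at -141 and -120 bp from the start in the dTAG-13 libraries and at -448 and -449 bp in the DMSO libraries. In EBF1-dTAG_N it lay at -131 and -131 bp in the dTAG-13 libraries and at -450 and -449 bp in the DMSO libraries. The summits of the 4 dTAG-13 libraries thus fell inside the promoter window, those of the 4 DMSO libraries fell outside it, and the groups did not overlap. The sequence at the DMSO summits was thus not searched for motifs. The mean summit was -130.5 ± 14.8 bp after dTAG-13 and -448.5 ± 0.707 bp after DMSO in EBF1-dTAG_C, a difference of 318 bp (SD, n = 2 each; two-sided exact permutation p = 0.333, the smallest that 2 against 2 allows). In EBF1-dTAG_N it was -131 ± 0 bp after dTAG-13 and -449.5 ± 0.707 bp after DMSO, a difference of 318.5 bp (SD, n = 2 each; two-sided exact permutation p = 0.333). With both lines together and the labels exchanged inside each line, the two-sided exact permutation p was 0.0556, the smallest that 36 arrangements allow, so the design could not reach 0.05. Of the 20596 regions with a peak in all 8 lists, 69 (0.335%) had the summits of the dTAG-13 lists and of the DMSO lists at least 100 bp apart without overlap. Among the 11 member regions with a peak in all 8 lists, the Pou2af1 start was 1 such region and the other 10 were not. The summit positions were looked at after the values of the region had been seen. The length of the peak differed by less than this: it was 712 and 723 bp long in the EBF1-dTAG_C dTAG-13 libraries and 762 and 753 bp in the EBF1-dTAG_C DMSO libraries, and 801 and 762 bp in the EBF1-dTAG_N dTAG-13 libraries and 766 and 769 bp in the EBF1-dTAG_N DMSO libraries.

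**Figure D2:**
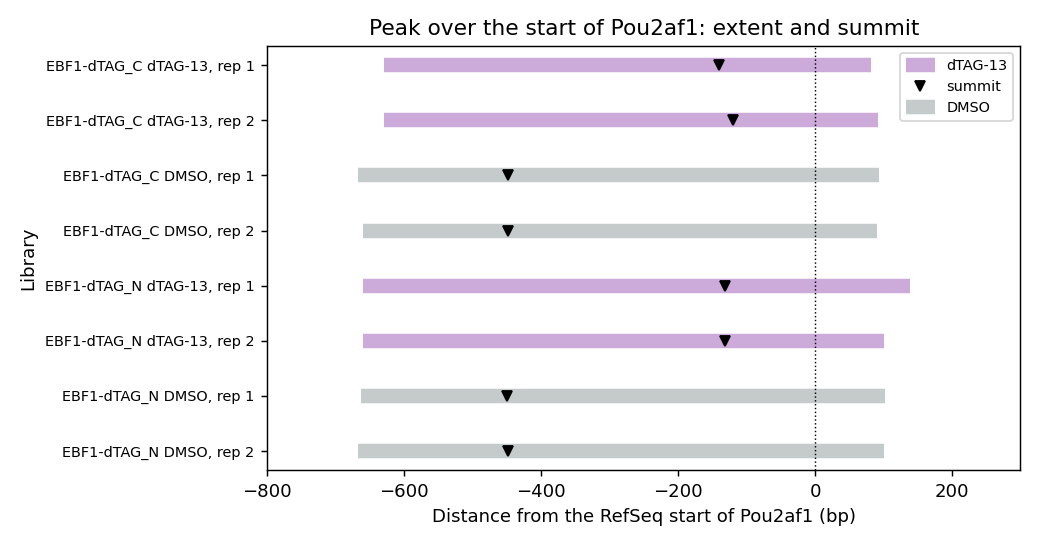
Extent (bars) and summit (black triangles) of the peak over the start of Pou2af1 in each of the 8 libraries, in bp from the RefSeq start (dotted line), dTAG-13 in purple and DMSO in grey. The summits lie between -141 and -120 bp in the 4 dTAG-13 libraries and between -450 and -448 bp in the 4 DMSO libraries.

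Behind the start, 2 regions inside Pou2af1 rose in EBF1-dTAG_N. The region 12.2 kb into the gene had a peak of fold enrichment 10.0 and 7.95 in the EBF1-dTAG_N dTAG-13 libraries and of 4.97 in 1 DMSO library of that line, with no peak in the other. In EBF1-dTAG_C it had a peak of 5.88 in 1 dTAG-13 library and none in the DMSO libraries. Its log2 fold change in the authors' deposited tables was 0.14 ± 0.49 in EBF1-dTAG_C (approximate standard error; edgeR adjusted p = 0.937) and it rose by 1.00 ± 0.30 in EBF1-dTAG_N (edgeR adjusted p = 0.00342). It was the single member region called with a rise of at least 1 in either table. Relative to the median of the EBF1-dTAG_N table its rise was 0.84, under 1, and was still called. The region 25.4 kb into the gene, close to its end, rose by 0.77 ± 0.18 in the authors' deposited table of EBF1-dTAG_N (edgeR adjusted p = 0.000138), and its value in EBF1-dTAG_C was 0.14 ± 0.46 (edgeR adjusted p = 0.932).

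At the other end of the gene, the region 26.6 kb from the start lay 205 bp past the end of the span. No dTAG-13 library had a peak there. It had a peak in 1 EBF1-dTAG_C DMSO library (fold enrichment 5.52) and in both EBF1-dTAG_N DMSO libraries (6.84 and 10.9). Its fold change on the log2 scale was, by the authors' deposited tables, -2.20 ± 0.81 in EBF1-dTAG_C (edgeR adjusted p = 0.169) and -1.82 ± 0.46 in EBF1-dTAG_N (edgeR adjusted p = 0.000381). A region 40.4 kb from the start, in the EBF1-dTAG_N table alone, just missed the threshold there at a log2 fold change of -2.94 ± 1.25 (the authors' deposited table, edgeR adjusted p = 0.0501) and had a peak in 1 EBF1-dTAG_N DMSO library. The remaining 3 regions lay upstream of the start, at -2.4, -8.9 and -18.7 kb, and were called in neither table. The one at -18.7 kb had a peak in all 8 lists, of fold enrichment 17.5 and 18.6 in EBF1-dTAG_C dTAG-13, 25.2 and 22.6 in EBF1-dTAG_C DMSO, 11.2 and 22.3 in EBF1-dTAG_N dTAG-13, and 17.3 and 19.7 in EBF1-dTAG_N DMSO. In EBF1-dTAG_C both dTAG-13 values thus lay under both DMSO values there too, although no change was called. The log2 fold change of that region in the authors' deposited tables was 0.06 in EBF1-dTAG_C and 0.24 in EBF1-dTAG_N.

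Pou2f1, which encodes Oct-1, spans chr1:165865150-166002749 on the minus strand (137.6 kb) and had 13 regions in EBF1-dTAG_C and 11 in EBF1-dTAG_N. The most accessible of its regions that fell lay 25.8 kb into the gene, at chr1:165976650-165977004 in EBF1-dTAG_C and chr1:165976646-165977027 in EBF1-dTAG_N. The fold enrichment of the peak there was 5.76 and 7.04 in the EBF1-dTAG_C dTAG-13 libraries and 24.5 and 28.9 in the EBF1-dTAG_C DMSO libraries. In EBF1-dTAG_N it was 8.28 and 18.8 in the dTAG-13 libraries and 33.0 and 31.5 in the DMSO libraries. The groups did not overlap in either line, and the share of all regions so separated was not counted. In EBF1-dTAG_C the groups were also separated at the uncalled region at -18.7 kb of Pou2af1. The EBF1-dTAG_N dTAG-13 libraries stood apart from each other. Within their own lists these peaks stood at percentiles 91.3 and 98.3 in EBF1-dTAG_C DMSO and 99.7 and 99.4 in EBF1-dTAG_N DMSO. In the authors' deposited tables the region fell by 1.91 ± 0.28 on the log2 scale in EBF1-dTAG_C (3.75-fold lower, edgeR adjusted p = 0.00117) and fell by 2.05 ± 0.17 in EBF1-dTAG_N (4.13-fold lower, edgeR adjusted p = 9.78e-33). Among the 32 member regions of the EBF1-dTAG_N table this was the smallest adjusted p.

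The region 8.4 kb into Pou2f1 was without a called peak in all 4 dTAG-13 lists. It had peaks of fold enrichment 13 and 7.36 in the EBF1-dTAG_C DMSO libraries and of 13 and 14.2 in the EBF1-dTAG_N DMSO libraries. The authors' deposited tables gave a log2 fold change of -3.12 ± 0.63 in EBF1-dTAG_C (edgeR adjusted p = 0.00962), the lowest of any member region there, and of -2.17 ± 0.44 in EBF1-dTAG_N (edgeR adjusted p = 5.95e-06). The region 129.6 kb into the gene, near its far end, was in the EBF1-dTAG_N table alone, where it fell by 2.83 ± 0.60 (the authors' deposited table, edgeR adjusted p = 1.94e-05). Its peaks had a fold enrichment of 12.7 and 10.7 in the EBF1-dTAG_N DMSO libraries and were not called in the dTAG-13 libraries of that line. A peak of 5.26 was called at the same place in 1 EBF1-dTAG_C DMSO library, but in no region of the EBF1-dTAG_C table.

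Neither of the 2 regions over starts of Pou2f1 fell in either line. The region over the first start, centred at -0.4 kb, was the most accessible of all member regions in EBF1-dTAG_C, at a mean log2 CPM of 7.86. Its strongest peak per library had a fold enrichment of 14.9 and 15.9 in EBF1-dTAG_C dTAG-13, 14.9 and 12.6 in EBF1-dTAG_C DMSO, 13.1 and 15.0 in EBF1-dTAG_N dTAG-13, and 14.1 and 13 in EBF1-dTAG_N DMSO. In the authors' deposited tables its log2 fold change was 0.12 ± 0.087 in EBF1-dTAG_C (edgeR adjusted p = 0.568), and it rose by 0.41 ± 0.059 in EBF1-dTAG_N (edgeR adjusted p = 6.53e-11). The region over the inner start, 67.7 kb into the gene, had a log2 fold change of 0.24 ± 0.13 in EBF1-dTAG_C (edgeR adjusted p = 0.417) and rose by 0.47 ± 0.096 in EBF1-dTAG_N (edgeR adjusted p = 7.58e-06), both from the authors' deposited tables. Its strongest peak per library had a fold enrichment of 14.1 and 15.2 in EBF1-dTAG_C dTAG-13, 17.0 and 17.7 in EBF1-dTAG_C DMSO, 14.1 and 18.8 in EBF1-dTAG_N dTAG-13, and 17.6 and 18.0 in EBF1-dTAG_N DMSO. The groups overlapped in EBF1-dTAG_N and not in EBF1-dTAG_C, where the DMSO values were the higher ones. The median of all regions in EBF1-dTAG_N was 0.17 on the same scale. The largest positive log2 fold change of any member region in EBF1-dTAG_C, 1.49 ± 0.44 at 75.5 kb into Pou2f1, did not pass the threshold in the authors' deposited table (edgeR adjusted p = 0.0737), and it was 0.68 ± 0.32 in EBF1-dTAG_N (edgeR adjusted p = 0.0759). A peak was called there with a fold enrichment of 11.7 and 10.4 in EBF1-dTAG_C dTAG-13, 8.28 in 1 EBF1-dTAG_C DMSO library, 11.8 and 10.5 in EBF1-dTAG_N dTAG-13, and 8.28 and 12.2 in EBF1-dTAG_N DMSO. The 11 uncalled Pou2f1 regions in the authors' deposited table of EBF1-dTAG_C ran in log2 fold change between -0.75 and 1.49, and the 6 uncalled ones in EBF1-dTAG_N between -0.47 and 0.76.

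Pou2f2, which encodes Oct-2, spans chr7:25087350-25180797 on the minus strand (93.448 kb) and had 16 regions in EBF1-dTAG_C and 14 in EBF1-dTAG_N. The single start in the promoter table lies inside this span, so that many regions at negative distances are still within the gene. The region that fell in both lines lay 2.7 kb behind that start, at chr7:25129573-25129993 in EBF1-dTAG_C and chr7:25129566-25130046 in EBF1-dTAG_N, and had the highest mean abundance at this gene (log2 CPM 5.83 and 5.85). Its peaks had a fold enrichment of 12.9 and 12.6 in the EBF1-dTAG_C dTAG-13 libraries, against 20.5 and 18.6 in the EBF1-dTAG_C DMSO libraries. In EBF1-dTAG_N they had 13.3 and 12.1 in the dTAG-13 libraries, against 17.2 and 19.3 in the DMSO libraries. A peak was called in all 8 lists, and the dTAG-13 and DMSO values did not overlap in either line. The share of all regions so separated was not counted. By the authors' deposited tables it fell by 1.06 ± 0.18 in EBF1-dTAG_C (2.09-fold lower, edgeR adjusted p = 0.00364) and fell by 0.90 ± 0.098 in EBF1-dTAG_N (1.87-fold lower, edgeR adjusted p = 9.02e-19).

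The other falls at Pou2f2 were called in EBF1-dTAG_N. The region 46.8 kb behind the start lay 1712 bp past the end of the Pou2f2 span, and the next gene, Zfp574, lay 2146 bp from its centre. It had no peak in any dTAG-13 list, peaks of fold enrichment 9.33 and 13.4 in EBF1-dTAG_C DMSO, and peaks of 18.6 and 18.5 in EBF1-dTAG_N DMSO. The authors' deposited tables gave a log2 fold change of -1.51 ± 0.44 in EBF1-dTAG_C (edgeR adjusted p = 0.0705) and of -2.59 ± 0.27 in EBF1-dTAG_N (edgeR adjusted p = 9.56e-21). A pair of regions in the EBF1-dTAG_N table alone, 14.9 and 13.4 kb behind the start, had no overlapping peak in any EBF1-dTAG_C list or in the dTAG-13 lists of EBF1-dTAG_N. Their peaks in EBF1-dTAG_N DMSO had a fold enrichment of 7.22 and 11.8 at 14.9 kb and of 6.77 and 5.66 at 13.4 kb. They fell by 2.03 ± 0.38 (edgeR adjusted p = 8.82e-07) and fell by 2.15 ± 0.62 (edgeR adjusted p = 0.00223) in the authors' deposited table of EBF1-dTAG_N.

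At the listed start of Pou2f2, which lies inside its span, no change was called. The region at -0.1 kb, which overlapped 225 bases of the printed window in EBF1-dTAG_C and 197 in EBF1-dTAG_N, had a peak in 1 dTAG-13 list of each line and in no DMSO list, with a fold enrichment of 6.53 in the EBF1-dTAG_C library and of 4.97 in the EBF1-dTAG_N library. On the log2 scale the authors' deposited tables gave it a fold change of 0.17 ± 0.24 in EBF1-dTAG_C (edgeR adjusted p = 0.811) and 0.18 ± 0.19 in EBF1-dTAG_N (edgeR adjusted p = 0.488). The region 25.4 kb behind the start rose by 0.39 ± 0.11 in the authors' deposited table of EBF1-dTAG_N (edgeR adjusted p = 0.000991) and had 0.11 ± 0.25 in EBF1-dTAG_C (edgeR adjusted p = 0.903). Its strongest peak had a fold enrichment of 9.82 and 11.7 in EBF1-dTAG_C dTAG-13, 10.2 and 14.0 in EBF1-dTAG_C DMSO, 13.2 and 14.8 in EBF1-dTAG_N dTAG-13, and 16.2 and 15.4 in EBF1-dTAG_N DMSO, so that in EBF1-dTAG_N both dTAG-13 values were the lower ones although the tested fold change was positive. Relative to the median of its table this rise was 0.23 and did not pass the threshold (approximate adjusted p = 0.0998). Nearest the end of the gene, a region of the EBF1-dTAG_C table alone, 45.5 kb behind the start, had a peak of 5.81 in 1 EBF1-dTAG_C dTAG-13 library, and one of the EBF1-dTAG_N table alone, at 46.0 kb, had a peak of 4.34 in 1 EBF1-dTAG_N DMSO library. Their log2 fold changes in the authors' deposited tables were 0.06 ± 0.67 (edgeR adjusted p = 0.982) and -0.63 ± 0.42 (edgeR adjusted p = 0.231). Beside the upstream end of the span, 830 bp outside it, the region at -49.2 kb had a peak in all 8 lists. Its fold enrichment was 8.20 and 8.09 in EBF1-dTAG_C dTAG-13 and 7.72 and 7.75 in EBF1-dTAG_C DMSO. In EBF1-dTAG_N it was 10.5 and 17.4 in dTAG-13 and 13.4 and 12.9 in DMSO. The authors' deposited tables gave it a log2 fold change of 0.35 ± 0.38 in EBF1-dTAG_C (edgeR adjusted p = 0.745). In EBF1-dTAG_N they gave 0.64 ± 0.28 (edgeR adjusted p = 0.063). The 15 uncalled regions in the authors' deposited table of EBF1-dTAG_C ran in log2 fold change between -1.51 and 0.53, and the 9 uncalled ones in that for EBF1-dTAG_N between -0.63 and 0.64.

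Counted by called peaks, the 3 genes had 22 and 21 peaks in the EBF1-dTAG_C dTAG-13 libraries and 25 and 28 in the EBF1-dTAG_C DMSO libraries. In EBF1-dTAG_N they had 16 and 24 peaks in the dTAG-13 libraries and 23 and 26 in the DMSO libraries. The means were 21.5 ± 0.707 after dTAG-13 and 26.5 ± 2.12 after DMSO in EBF1-dTAG_C (SD, n = 2 each; two-sided exact permutation p = 0.333, the smallest possible). They were 20 ± 5.66 after dTAG-13 and 24.5 ± 2.12 after DMSO in EBF1-dTAG_N (SD, n = 2 each; two-sided exact permutation p = 0.667). The groups overlapped in EBF1-dTAG_N and not in EBF1-dTAG_C. Over the whole lists, the dTAG-13 libraries also had fewer peaks in both lines, 34382 and 34202 against 40440 and 42139 in EBF1-dTAG_C and 35851 and 39721 against 41613 and 40166 in EBF1-dTAG_N, and the part of list length in the member counts was not tested.

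A peak called in the 2 DMSO lists of the line but absent from its dTAG-13 lists was found at 3 of the 36 EBF1-dTAG_C regions (8.33%), where 8.46% of all its regions had this pattern. In EBF1-dTAG_N it was found at 6 of 32 regions (18.8%), where 10.3% of all regions had it. The reverse pattern was found at 0 member regions in both lines, where 1.38% of all EBF1-dTAG_C regions and 3.53% of all EBF1-dTAG_N regions had it. A peak in all 4 lists of the line was found at 13 EBF1-dTAG_C regions (36.1%, against 44.0% of all) and at 14 EBF1-dTAG_N regions (43.8%, against 46.1% of all). Both EBF1-dTAG_C counts were at or below the background of their table.

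**Figure D3:**
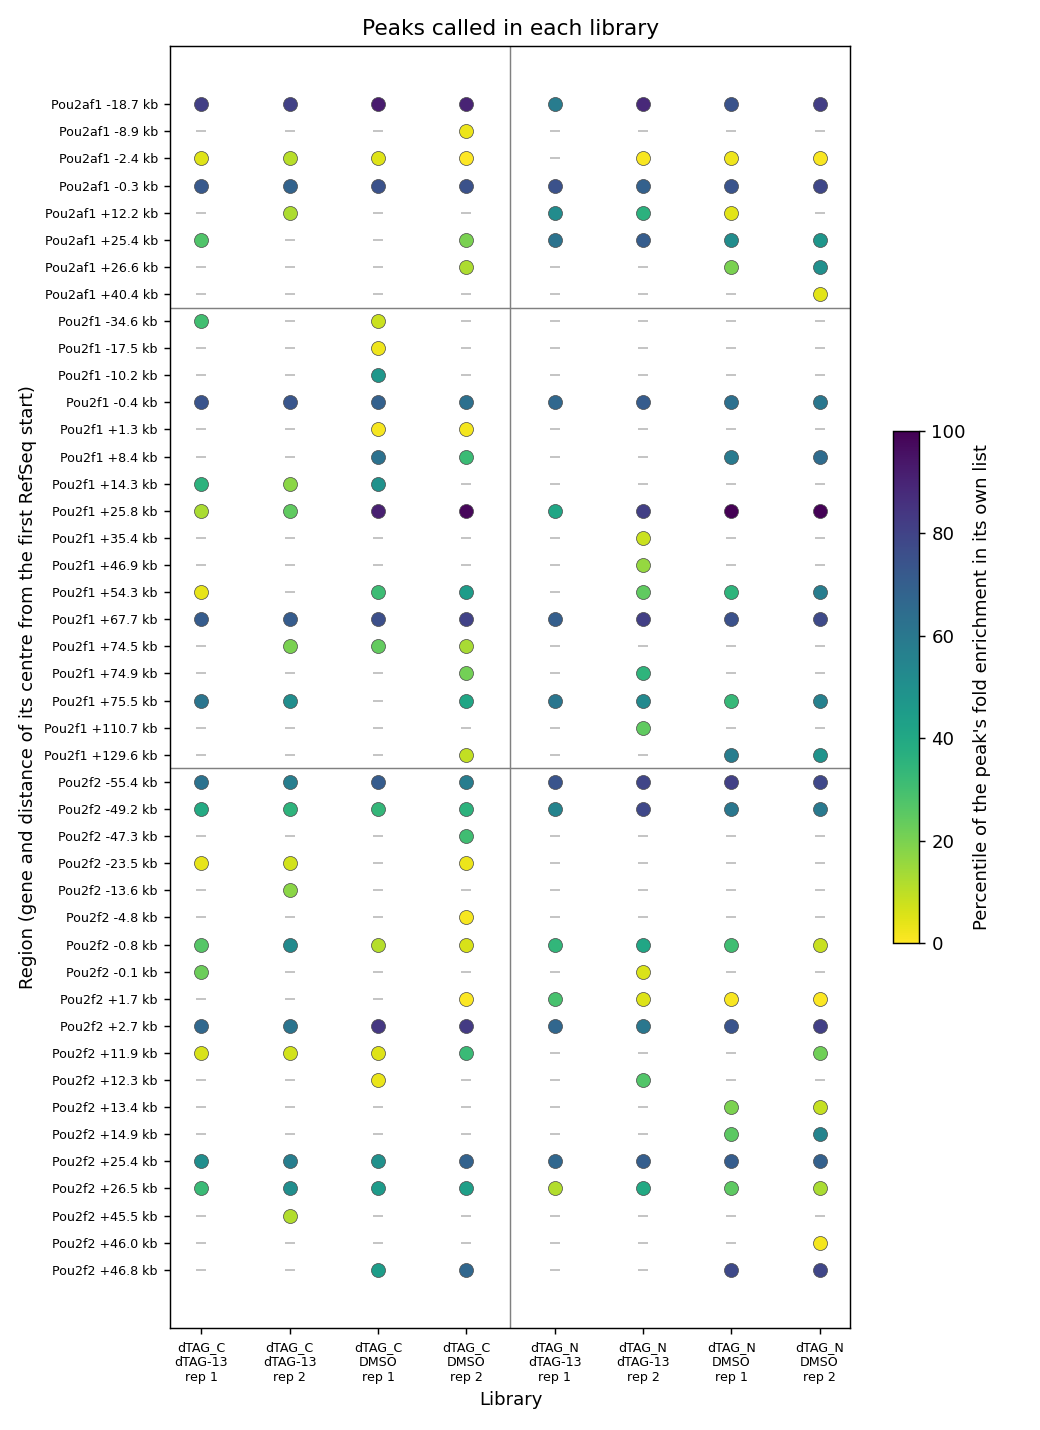
Called peaks at each of the 44 regions (rows, named by gene and distance from the first start in kb) in the 8 libraries (columns); colour is the percentile of the peak's fold enrichment within its own list and a dash is no peak. The regions at 8.4 kb of Pou2f1 and 46.8 kb of Pou2f2 have peaks in all 4 DMSO libraries and in 0 dTAG-13 libraries. The share of all regions with this pattern over both lines was not counted.

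The members' changes in the 2 lines were set side by side over the 24 regions tested in both. The log2 fold changes had the same sign at 23 of them (95.8%), where 76.7% of all 43350 overlapping pairs did. Across these 24 regions, which are not independent replicates and share the libraries of each line, Pearson's r was 0.896 and Spearman's rho 0.868, against 0.839 and 0.645 across all pairs. No member region differed between the lines at an adjusted p under 0.05 in an approximate test from the deposited fold changes and F values, where 0.201% of all pairs did, and 3 of the 24 (12.5%) had an unadjusted 95% interval of the difference that excluded 0, where 6.51% of all pairs had one. The largest of these, with the lines' difference as EBF1-dTAG_C minus EBF1-dTAG_N, was at the region 46.8 kb behind the Pou2f2 start, at 1.09 (95% interval 0.07 to 2.10, adjusted p = 0.720 in the approximate test over all pairs). At the Pou2af1 start the difference was -0.39 (95% interval -0.60 to -0.17, adjusted p = 0.0924 in that test), with the deeper fall in EBF1-dTAG_C. At the first Pou2f1 start it was -0.28 (95% interval -0.49 to -0.08, adjusted p = 0.446 in that test). At the region 25.8 kb into Pou2f1 the difference was 0.14 with a 95% interval of -0.50 to 0.77. All these intervals use EBF1-dTAG_N standard errors from a spread pooled over regions, so they do not measure the spread between its libraries. They also use a normal reference, which makes them narrower than the 11.2 degrees of freedom of EBF1-dTAG_C would.

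**Figure D4:**
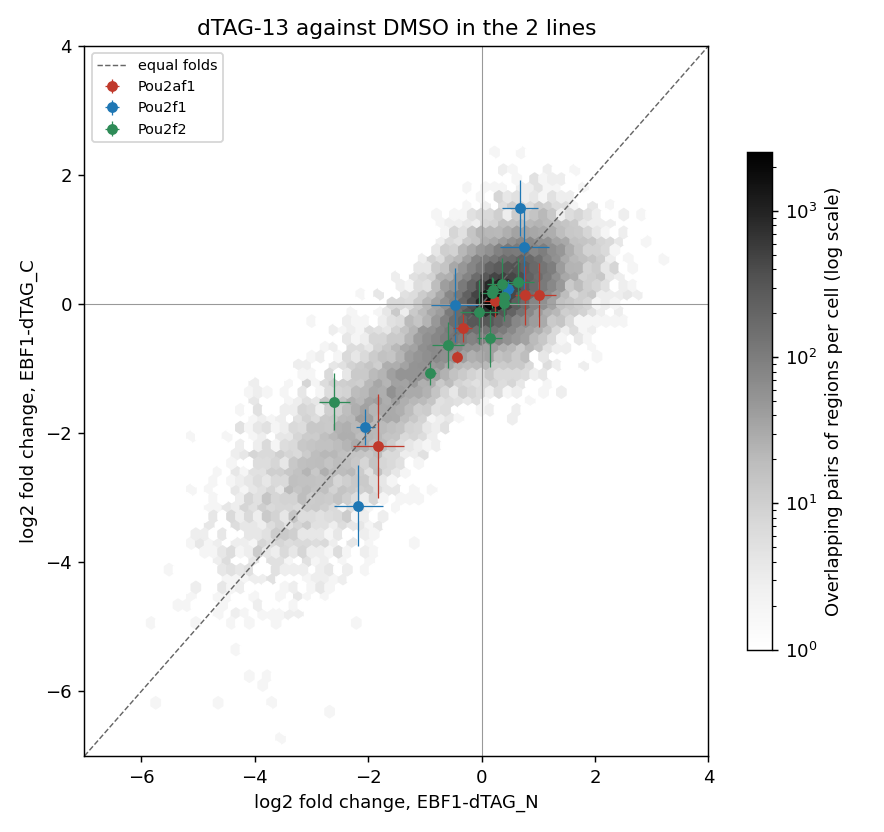
Log2 fold change, dTAG-13 against DMSO, in EBF1-dTAG_C (vertical) and EBF1-dTAG_N (horizontal) for the 24 member regions tested in both lines (coloured points, bars are the approximate standard error) over all 43350 overlapping pairs (grey cells, darker for more pairs, log scale). The members lie along the dashed line of equal folds, with 23 of 24 of the same sign in both lines.

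**Figure D5:**
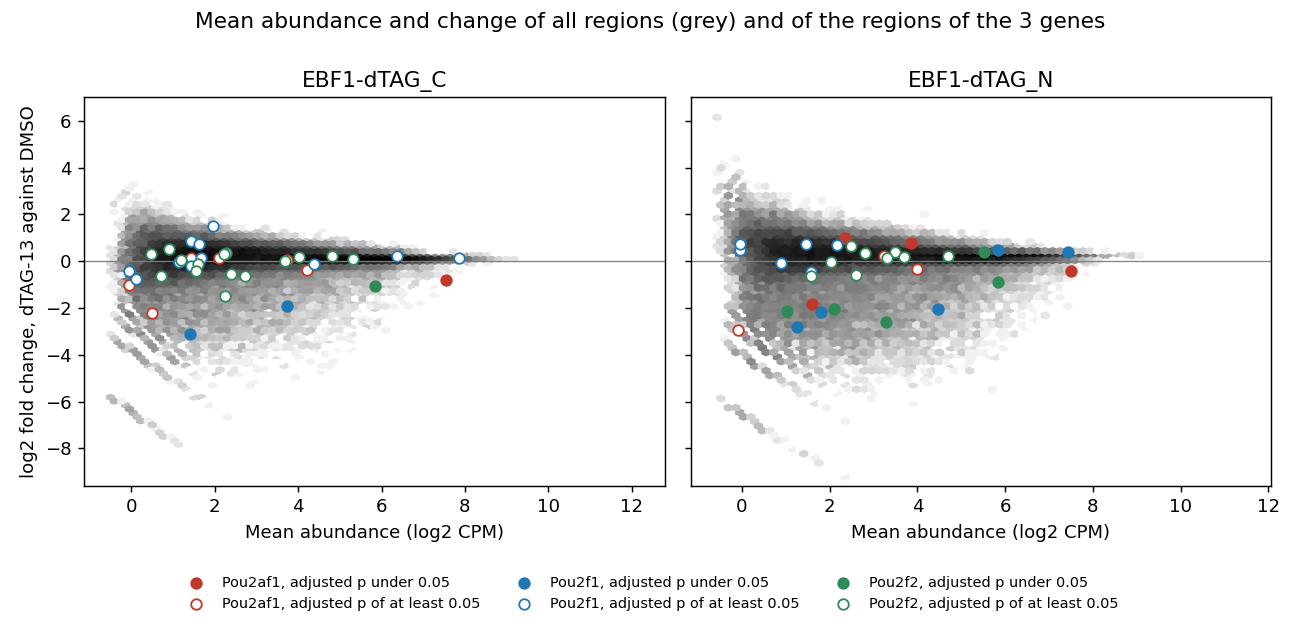
Log2 fold change, dTAG-13 against DMSO, by mean abundance in log2 CPM for all regions (grey) and the member regions (coloured by gene; filled where the adjusted p was under 0.05) in EBF1-dTAG_C (left) and EBF1-dTAG_N (right). The Pou2af1 and first Pou2f1 start regions are the points at a log2 CPM above 7, with Pou2af1 below 0 and Pou2f1 above 0 in both lines (Pou2f1 not called in EBF1-dTAG_C).

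The wider POU family and genes known to be bound or driven through octamers were described from lists of 15 and 10 genes. Of the POU list 13 genes matched the gene table, and none of these 13 is a member. By the authors' deposited table of EBF1-dTAG_C they had 16 regions, of which 1 fell (6.25%) and 0 rose, where 6.62% of all regions fell and 0.308% rose. By the authors' deposited table of EBF1-dTAG_N they had 30 regions, of which 9 fell (30.0%) and 1 rose (3.33%), where 18.5% of all regions fell and 18.8% rose. Of these falls, 5 were near 1 gene: 5 of 8 regions nearest to Pou3f3, a neural POU factor, fell in EBF1-dTAG_N, and the one with the smallest adjusted p, 74.0 kb from the gene, had a log2 fold change of -1.45 in EBF1-dTAG_C (edgeR adjusted p = 0.000808) and of -1.51 in EBF1-dTAG_N (edgeR adjusted p = 5.39e-27) in the authors' deposited tables. The single region of Pou2f3 (Oct-11, known from tuft cells), inside the gene, fell by 3.98 in the authors' deposited table of EBF1-dTAG_N (edgeR adjusted p = 5.04e-14). A region near Pou4f1 fell by 1.82 (edgeR adjusted p = 0.0124) and one near Pou4f2 rose by 1.32 (edgeR adjusted p = 2.86e-05) in the same authors' deposited table.

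All 10 octamer-list genes matched. They had 47 regions in the authors' deposited table of EBF1-dTAG_C, of which 8 fell (17.0%), at 5 genes, and 0 rose. The authors' deposited table of EBF1-dTAG_N held 37, of which 12 fell (32.4%), at 7 genes, and 6 rose (16.2%), at 3 genes. As for the POU list, only genes with a called log2 change of at least 1 are named, each in the line with that call. Falls and rises at further list genes, Cd79b in EBF1-dTAG_N and Il5ra in EBF1-dTAG_C are therefore not described. Over all regions 6.62% fell and 0.308% rose in EBF1-dTAG_C, and 18.5% fell and 18.8% rose in EBF1-dTAG_N, which are also the shares beside the counts per gene that follow. At Cxcr5, a chemokine receptor of B cells, a region beside the gene fell by 2.29 in EBF1-dTAG_C (edgeR adjusted p = 0.0011) and fell by 2.22 in EBF1-dTAG_N (edgeR adjusted p = 1.72e-17) in the authors' deposited tables. A region beside Ms4a1, which encodes CD20, fell by 1.26 in EBF1-dTAG_C (edgeR adjusted p = 0.0027) and fell by 2.50 in EBF1-dTAG_N (edgeR adjusted p = 3e-18) in the same authors' deposited tables. At Cd79b, a signal chain of the B cell receptor, 3 of 4 regions fell in EBF1-dTAG_C, with a log2 fold change of -1.05 at the one with the smallest adjusted p in the authors' deposited table (edgeR adjusted p = 0.00152). At Il5ra, a cytokine receptor chain, 2 of 7 regions fell in EBF1-dTAG_N, with -1.69 at the one with the smallest adjusted p in the authors' deposited table (edgeR adjusted p = 2.79e-42). At Bcl2, a survival gene, 1 of 13 regions fell in EBF1-dTAG_C, at a low mean log2 CPM of 0.24 (edgeR adjusted p = 0.0455), and in EBF1-dTAG_N 2 of 9 fell and 2 rose in the authors' deposited tables.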

How the data were processed

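ATAC-seq was done on 8 libraries in 4 groups of 2. Read mapping, peak calling and the tests were the authors' work. Per the submitters' processing notes, edgeR 3.32.0, MACS2 2.2.7.1, deepTools 3.3.2, Bowtie2 2.3.5.1 and SAMtools 1.10 were used with the mm10 (GRCm38) build. For read filters and any Tn5 shift, the sources used here give nothing. The authors deposited, per line, a table of log2 fold changes, mean abundance (log2 CPM), an F score and p-values for dTAG-13 against DMSO, with no value per library. Per library they deposited a peak list with a score, a fold enrichment (a ratio to local background) and −log10 p-values and q-values. Depth in reads is unknown, so no counting intervals are given.

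Repeated entries were counted once (8 in EBF1-dTAG_C, 12 in EBF1-dTAG_N). Calls use the deposited adjusted p under 0.05, which the Benjamini-Hochberg adjustment over all regions gave back. The approximate standard error is the absolute log2 fold change over the square root of F, and the lines were compared with it over all 43350 pairs overlapping by at least 1 bp, in a normal approximation across all pairs. Spans came from RefSeq GRCm38.p6 (21900 protein-coding genes), without exons, so intron and exon are not told apart. Distances are from a region's centre to the first start in the promoter table. Peaks and regions were matched by at least 1 bp. Every region is accounted for; values per library are given for the regions nearest the gene starts and ends, regions called with a log2 change of 1 or more either way, and the most abundant region of each gene. The regions at -18.7 kb of Pou2af1, 25.4 kb of Pou2f2 and 67.7 and 75.5 kb of Pou2f1 were named after their values were seen. The members, lists and tests were chosen with earlier results of these data known. The series calls the libraries of a group biological replicates. In 2 of the 8 lists, both of EBF1-dTAG_C, the peak names carry another replicate number than the title; the titles were followed, and the numbers pair nothing here. Python 3.11.15, pandas 2.3.3, numpy 2.4.6, SciPy 1.17.1 and matplotlib 3.10.9 were used.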

Additional observations from a re-analysis of the deposited data

How the results depend on the processing

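No paired analysis was possible because the deposited tables hold comparisons and no values per library; for the same reason no replicate could be left out of the tests and no other scaling or count tool could be tried. The numbers of regions that fell or rose stayed within 1.5 times the main count, in both lines, with an adjusted p under 0.01, a limit of 20 kb, assignment by the nearest edge, no regions from the lowest 25% of mean abundance and folds centred on the median, and, in EBF1-dTAG_N, with the degrees of freedom of EBF1-dTAG_C. The exchange of degrees of freedom kept the deposited F values, and with them the pooled spread, so it cannot test that pooling. One count left that range: with a log2 change of 1 or more required, 1 region rose in EBF1-dTAG_N, against 5. Centring ended the call of the region 25.4 kb behind the Pou2f2 start in EBF1-dTAG_N (0.23) and added 3 falls there, at 11.9 kb of Pou2f2 (-0.75) and at -2.4 kb (-0.50) and 40.4 kb (-3.11) of Pou2af1. Of the peak patterns, 1 region of EBF1-dTAG_N had peaks in both dTAG-13 lists alone when peaks needed a −log10 q of at least 5, against 0. Leaving out each replicate in turn, regions with peaks in all remaining DMSO lists and no dTAG-13 list numbered 4 to 9 in EBF1-dTAG_C (3 with all libraries) and 6 to 9 in EBF1-dTAG_N (6 with all libraries), and regions of the reverse pattern 1 to 3 in EBF1-dTAG_C and, in EBF1-dTAG_N, 0 to 6 (0 with all libraries in both). With 1 list fewer, fewer lists need to agree, so by construction these counts cannot drop. The summit difference at the Pou2af1 start, an alternative chosen after seeing the data, was 307.5 to 328.5 bp in EBF1-dTAG_C; in EBF1-dTAG_N it was 318 to 319 bp. With 2 libraries a group, no exact test within a line can go below 0.333.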

Other observations

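A further peak was called in 1 EBF1-dTAG_C DMSO library, with a fold enrichment of 5.95, at chr1:165865227-165865458, where the spans of Cd247 and Pou2f1 overlap. No region of the EBF1-dTAG_C table covers it. Cd247 encodes the T-cell receptor zeta chain.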
